A study of Mus musculus with 7 samples.

Results

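Lipid absorption and chylomicron genes were followed through the development of the mouse colon. The list holds 10 genes, all measured, among 18194 genes with at least 1 probe set that names a single gene: Apoa1, Apoa4, Apoc3, Apob, Mttp, Fabp2, Fabp6, Fabp1, Dgat1 and Cd36. They were listed by name for their function, with earlier results of these data known. Total colon RNA of inbred C57BL/6 mice, with no treatment and no engineered allele, was measured on each of 6 consecutive days of gestation, the first being E13.5 and the last E18.5, and in the adult at an age of 8 weeks. Each of the 7 stages was represented by 1 Affymetrix Mouse Genome 430 2.0 array, and how many animals gave the RNA of an array is not given in the sources used here. Values are log2 levels, so a difference of 1 is a 2-fold difference, and the value of a gene is the median of its single-gene probe sets, of which the 10 genes have 20.

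Dietary triglyceride is split in the lumen, and its fatty acids and monoglyceride enter enterocytes, the absorptive cells of the gut lining. There they are bound by fatty acid binding proteins, rebuilt into triglyceride by acyltransferases and loaded by Mttp onto apolipoprotein B to form chylomicrons, which also carry apolipoproteins A-I, A-IV and C-III. In the adult this takes place mainly in the small intestine. The gut and yolk sac of the fetus also make lipoproteins, and the liver secretes several of the same apolipoproteins.

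Of the 10 genes, 6 were at least 2-fold higher on the E17.5 array than on the E16.5 array: Apoa1, Apoa4, Apoc3, Mttp, Fabp2 and Fabp6. Among all genes 118 (0.649%) passed this limit. Apoa1 had the largest E17.5 minus E16.5 difference of all 18194 genes, and Fabp2, Fabp6 and Apoc3 ranked 2, 5 and 8. In the adult these 6 genes parted. Apoa1, Apoa4, Apoc3, Mttp and Fabp6 were at least 2-fold lower than at E18.5, as were 698 of all genes (3.84%), and Fabp2 was at least 2-fold higher, as were 788 (4.33%). Apob, Dgat1, Cd36 and Fabp1 stayed within 2-fold at every step between neighbouring arrays. Each of these steps sets 1 array against 1 array and has no replicate check. The step from E16.5 to E17.5 was singled out from the values of these genes, so its counts and ranks describe them and are no test.

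**Figure D1:**
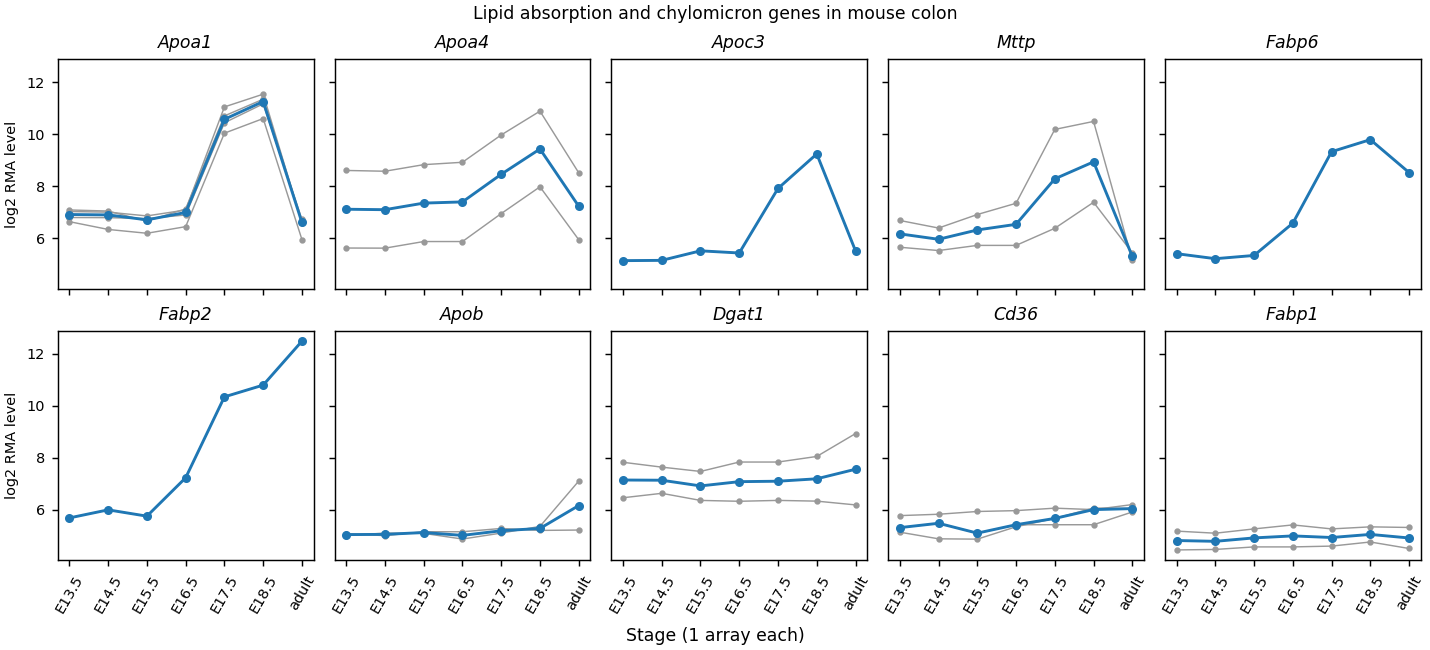
Log2 RMA level (vertical axis) of the 10 lipid absorption genes at each of the 7 stages (horizontal axis), with 1 array per stage. Grey lines are single probe sets and blue lines the median per gene. Apoa1, Apoa4, Apoc3, Mttp and Fabp6 are highest at E18.5 and lower in the adult, Fabp2 is highest in the adult, and the lower row also holds the 4 genes with small differences.

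A replicated test of single stages was not possible. A line through embryonic day was therefore fitted to the 6 embryonic arrays in limma, and the adult array received a term of its own, read as the adult level minus the value of that line at E18.5. Error came from the scatter of embryonic arrays about the fitted line, which eBayes draws toward the scatter of all genes. For the single adult array it had to be taken as equal. A residual SD given below is the gene's own, before this step. Benjamini-Hochberg adjustment was made over all 18194 genes. At an adjusted p under 0.05, 6 of the 10 genes rose along the embryonic days, where 9.12% of all genes did (1660 of 18194), and 0 fell, where 10.4% did. All 10 slopes were above 0 in this fit, 4 of them without passing. The share of all genes with a slope above 0 is not given here. Dgat1 had the slope nearest to none, 0.008, and its sign was not stable. It was −0.006 when the arrays were set to equal medians and −0.015 without the E18.5 array. The median slope was 0.52 log2 units per day over the 10 genes and 0.00 over all genes. In the adult 2 of the 10 were lower, Apoa4 and Mttp, where 3.26% of all genes were lower at an adjusted p under 0.05 and a difference of at least 1. At these thresholds 0 were higher, where 4.23% of all genes were. Of those not called, Apob (0.94), Dgat1 (0.44), Cd36 (0.24) and Fabp2 (1.99) had adult differences above 0, and Apob and Dgat1 fell short of 1. Apoa1 (−3.98), Apoc3 (−2.93), Fabp6 (−0.95) and Fabp1 (−0.12) had differences below 0.

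The calls moved when single arrays were left out, as did the number of calls over all genes. Without the E18.5 array 0 of the 10 genes passed upward along the slope, where 812 of all 18194 genes did. Without the E14.5 or the E17.5 array Fabp2 and Fabp6 passed, 2 of the 10 each time, where 1023 and 965 of all genes did. Leaving out E15.5 gave 7 of the 10, Cd36 being added, and 2076 of all genes. Calls lower in the adult changed less over all genes. Leaving out E13.5 or E16.5 gave 4 of the 10 genes, Apoa1 and Apoc3 being added, where 591 and 566 of all genes were lower. Leaving out E14.5 or E17.5 gave 1 of the 10, Mttp, where 552 and 519 of all genes were lower, and leaving out E18.5 gave 0, where 511 were.

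**Figure D2:**
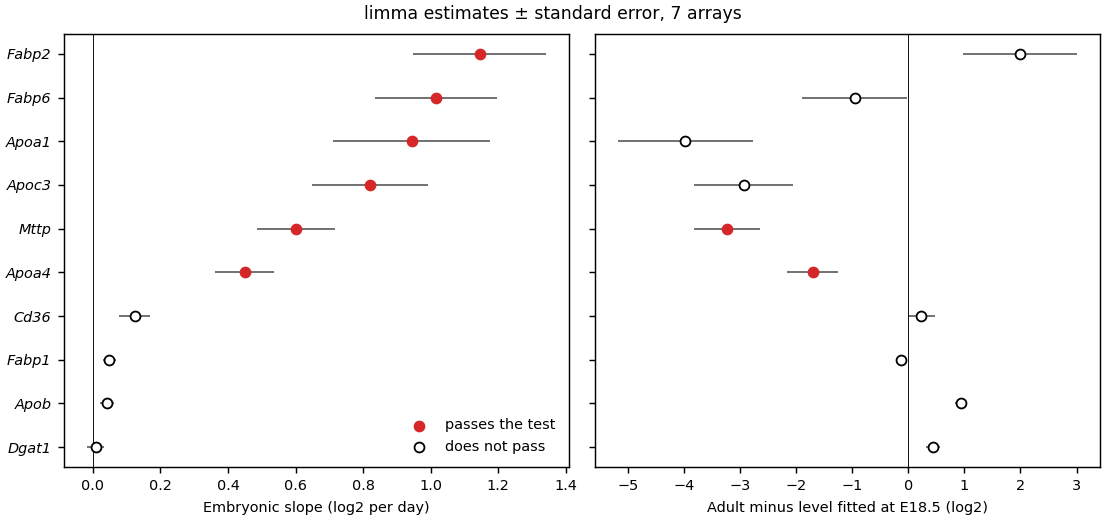
Estimates of the limma fit for the 10 genes, with bars of 1 standard error. The left panel plots the slope over the 6 embryonic arrays in log2 units per day and the right panel the adult array minus the value of the line at E18.5 in log2 units. Filled points pass the test, which 6 slopes and 2 adult differences do.

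Apoa1 encodes apolipoprotein A-I, the main protein of high density lipoprotein and a component of new chylomicrons. Its median over 4 probe sets was 6.91, 6.90, 6.71, 6.99, 10.57 and 11.26 on the embryonic arrays in order of stage and 6.61 in the adult. The first 4 arrays lay within 0.28 of each other, the 2 last embryonic arrays stood far above them, and the adult array was the lowest of the 7. Apoa1 was 12.0-fold higher at E17.5 than at E16.5. It was 25.1-fold lower in the adult than at E18.5, the fourth largest decrease of all genes. The 4 probe sets took the same course, with E17.5 minus E16.5 between 3.55 and 3.96. The fitted slope was 0.94 ± 0.23 per day (SE, adjusted p = 0.0319, limma). The adult difference of −3.98 ± 1.20 did not pass (adjusted p = 0.0645). When probe sets were fitted singly, the slope of 1419233_x_at did not pass (adjusted p = 0.0507, limma) and those of the others did.

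A line described Apoa1 poorly, with a residual SD of 1.27. In a fit chosen after the values had been seen, with a step between E16.5 and E17.5 in place of the line, its residual SD was 0.26. The step was 4.04 ± 0.19 (SE, adjusted p = 0.00765) and the adult minus the averaged E17.5 and E18.5 arrays was −4.31 ± 0.27 (adjusted p = 0.000426). Apoa1 was 1 of 2 genes of all 18194 (0.011%) that passed this step upward, and 4 of the 10 genes were lower in the adult in this fit (Apoa1, Apoa4, Apoc3 and Mttp), where 2.82% of all genes were. Because the place of the step was read from these genes, these values describe the genes and are no test of them.

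Apoc3 and Apoa4 lie next to Apoa1 on mouse chromosome 9, in the order Apoa1, Apoc3, Apoa4, with no other protein-coding gene of the RefSeq annotation between them. Apoc3 encodes apolipoprotein C-III, an inhibitor of lipoprotein lipase. Its single probe set, 1418278_at, read 5.14, 5.15, 5.52, 5.43, 7.92 and 9.24 on the embryonic arrays in order of stage and 5.52 in the adult. The adult value lay at the level of the E15.5 array and far below both late embryonic arrays. Apoc3 was the only one of the 10 genes with a further 2-fold step between E17.5 and E18.5 (0.368% of all genes). It rose at 0.82 ± 0.17 per day (adjusted p = 0.0179), and its adult difference of −2.93 ± 0.88 did not pass (adjusted p = 0.0634).

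Apoa4 encodes apolipoprotein A-IV, a chylomicron protein that enterocytes secrete when fat is absorbed. Its 2 probe sets had a median of 7.12, 7.10, 7.35, 7.40, 8.46 and 9.43 on the embryonic arrays in order of stage and 7.23 in the adult. The adult array fell within the range of the first 4 embryonic arrays. The rise was the smallest of the 6, 0.45 ± 0.09 per day (adjusted p = 0.0149), and the adult difference of −1.70 ± 0.46 passed (adjusted p = 0.0435). Apoa4 lost its adult call without the E14.5, the E17.5 or the E18.5 array. The 2 probe sets ran in parallel, with E17.5 minus E16.5 at 1.07 and 1.05, and only 1436504_x_at passed for the adult when probe sets were fitted singly (adjusted p = 0.0295, against 0.0818 for 1417761_at).

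Upstream sequence was read for the genes that moved together. RefSeq promoter windows of the GRCm38.p6 assembly, from 250 bases before to 50 after the start of each gene, were at hand for 8 of the 10 genes, all but Apoc3 and Dgat1. The windows of Apoa1 and Apoa4 are shown as neighbours that were both high at E17.5 and E18.5 and low in the adult, and that of Fabp2 as the gene that stayed high. Capitals mark the letters that a motif search found. The Apoa1 window is chr9:46228380-46228679 on the plus strand, the Apoa4 window chr9:46240594-46240893 on the plus strand and the Fabp2 window chr3:122894822-122895121 on the plus strand.
Apoa1: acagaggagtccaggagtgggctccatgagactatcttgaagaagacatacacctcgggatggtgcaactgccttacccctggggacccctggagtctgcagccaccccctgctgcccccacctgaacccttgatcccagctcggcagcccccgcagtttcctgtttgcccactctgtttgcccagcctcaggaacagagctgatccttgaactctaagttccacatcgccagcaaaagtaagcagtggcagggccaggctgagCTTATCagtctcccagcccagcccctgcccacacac
Apoa4: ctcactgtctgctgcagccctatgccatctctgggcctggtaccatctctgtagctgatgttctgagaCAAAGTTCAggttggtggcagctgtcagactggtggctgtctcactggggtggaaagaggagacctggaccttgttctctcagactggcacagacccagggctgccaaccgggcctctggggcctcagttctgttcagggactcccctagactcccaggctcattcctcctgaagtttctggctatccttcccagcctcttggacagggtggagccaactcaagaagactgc
Fabp2: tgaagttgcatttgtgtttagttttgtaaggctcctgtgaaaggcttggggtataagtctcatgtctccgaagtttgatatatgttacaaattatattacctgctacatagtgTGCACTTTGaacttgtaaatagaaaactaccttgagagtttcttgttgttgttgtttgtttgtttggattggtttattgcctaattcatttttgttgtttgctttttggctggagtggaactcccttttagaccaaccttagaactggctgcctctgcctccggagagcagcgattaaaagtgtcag

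Both strands were searched for 3 motifs, chosen with the sequences at hand: CAAAGTNCA, bound by nuclear receptors of the HNF4 type, GATAAG, bound by GATA factors, and TATAAA, the TATA box. The HNF4-type letters stood in the Apoa4 window, first base 182 before the start, and on the opposite strand in the Fabp2 window, 137 before the start. They occurred in 1.41% of 32851 promoter windows of the same length. In the Apoa1 window the search found the GATA letters on the opposite strand, 14 after the start, which 7.44% of all windows hold. The TATA letters, in 13.6% of windows, stood 29 before the start of Fabp6 on the opposite strand, 30 before that of Fabp1 and 60 before that of Apob, whose window also held the GATA letters on the opposite strand, 154 before the start. The Mttp and Cd36 windows held none of the 3 motifs. No match overlapped another. Apoa4 and Fabp2, which share a match to the HNF4-type motif, parted in the adult, and a part of the motif in their levels was not tested. The search took only the letters given, so sites with other letters were not counted. A match of letters is a description and does not show that a factor binds there.

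Mttp encodes the large subunit of the microsomal triglyceride transfer protein, which loads lipid onto apolipoprotein B. Its median over 2 probe sets was 6.17, 5.96, 6.32, 6.54, 8.29 and 8.94 on the embryonic arrays in order of stage and 5.30 in the adult. The adult array lay below all 6 embryonic arrays, and Mttp was 12.4-fold lower in the adult than at E18.5. It rose at 0.60 ± 0.11 per day (adjusted p = 0.0133) and its adult difference of −3.23 ± 0.59 passed (adjusted p = 0.0109). Mttp kept its adult call without the E14.5 or the E17.5 array and lost it without E18.5.

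The 2 Mttp probe sets differed in the size of the change. On the arrays of E16.5, E17.5, E18.5 and adult colon, probe set 1419400_at read 7.35, 10.19, 10.49 and 5.17. Probe set 1419399_at read 5.73, 6.38, 7.38 and 5.44. The adult difference was −5.04 ± 0.87 (adjusted p = 0.00985) for the first and −1.43 ± 0.42 (adjusted p = 0.0630) for the other, so both pointed down and only the first passed.

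Fabp6 encodes the ileal bile acid binding protein of enterocytes. Its single probe set, 1450682_at, read 5.41, 5.22, 5.34, 6.58, 9.33 and 9.79 on the embryonic arrays in order of stage and 8.53 in the adult. Fabp6 and Fabp2 had also passed the 2-fold limit a day before the others, on the E16.5 array against the E15.5 array, as did 1.01% of all genes. The adult level of Fabp6 was 2.41-fold below that of E18.5, and it still stood above the first 4 embryonic arrays. The slope was 1.01 ± 0.18 per day (adjusted p = 0.0105), and the adult difference of −0.95 ± 0.93 did not pass (adjusted p = 0.574).

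Fabp2 encodes the intestinal fatty acid binding protein of enterocytes. Its single probe set, 1418438_at, read 5.69, 6.00, 5.76, 7.24, 10.35 and 10.80 on the embryonic arrays in order of stage and 12.49 in the adult. Every array from E16.5 on was above the one before it. Fabp2 was 8.64-fold higher at E17.5 than at E16.5 and, in the adult, 3.22-fold above its E18.5 level. It had the steepest slope of the 10 genes, 1.14 ± 0.20 per day (adjusted p = 0.00921), and an adult difference of 1.99 ± 1.01 that did not pass (adjusted p = 0.246). It was the 1 gene of the 10 with a Spearman correlation with stage order above 0.9 (rho = 0.96 over 7 arrays, with 1 array per stage), which 6.5% of all genes exceeded.

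**Figure D3:**
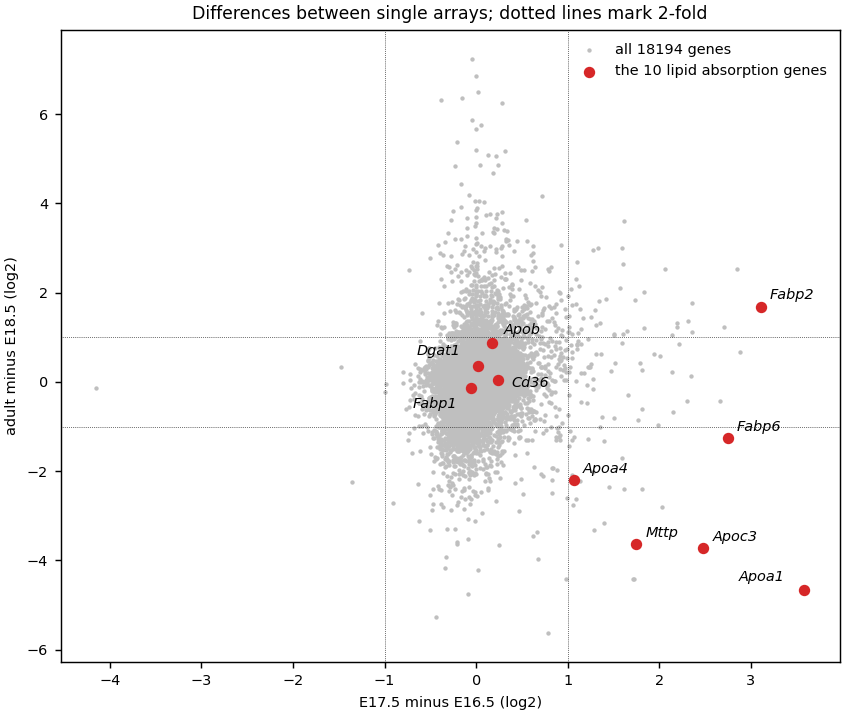
Each point is a gene, with E17.5 minus E16.5 on the horizontal axis and adult minus E18.5 on the vertical axis, both in log2 units between single arrays. The 10 lipid absorption genes are red among all 18194 genes in grey, and dotted lines mark 2-fold. Apoa1, Apoc3, Mttp, Apoa4 and Fabp6 lie at the lower right, where 26 genes fall in all.

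The lower right of the plot of single-array differences, at least 2-fold higher at E17.5 than at E16.5 and at least 2-fold lower in the adult than at E18.5, held 26 of the 18194 genes (0.143%). Of these, 5 were lipid absorption genes, from whose values the interval was picked, so the count is no test. The other 21 included Cubn, an endocytic receptor for apolipoprotein A-I and for vitamin B12 with intrinsic factor, and Abcc2, an exporter of bile acid and bilirubin conjugates. They also included Slc7a9, a carrier of cystine and basic amino acids, Cps1, the first enzyme of the urea cycle, and Afp, the fetal serum protein alpha-fetoprotein. Slc7a9 read 7.85 and 8.66 on the last embryonic arrays, against 5.83 at E16.5, and 5.87 in the adult.

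The genes whose profiles lay nearest to each of the 6 were found by the root-mean-square difference of the levels, each gene centred on its mean over the 7 arrays. For Apoa1 the nearest was Apoc3 (0.49 log2 units), followed by Slc7a9 (0.69) and Ces1c, a secreted carboxylesterase (0.74). For Apoc3 they were Slc7a9 (0.34), Npl, which splits sialic acid (0.47), and Bcl2l15 (0.49). For Apoa4 they were Meltf (0.19), Abcc2 (0.20) and Smlr1 (0.24), and for Mttp Bcl2l15 (0.41), Renbp (0.43) and Abcc2 (0.46). Abcc2, Bcl2l15 and Slc7a9 each stood beside 2 of these 4 genes.

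The neighbours of Fabp2 and Fabp6 were other genes. Nearest to Fabp2 were Muc2, the main mucin of goblet cells (0.21), Mptx1 (0.39) and Reg4 (0.40), and all 3 were highest in the adult. Nearest to Fabp6 were the enteroendocrine hormone gene Pyy (0.35), Cyp2d26 (0.35) and the intestinal alkaline phosphatase Alpi (0.51). These nearest genes describe the shape of a profile over 7 arrays of 1 series.

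Apob encodes apolipoprotein B, the structural protein of chylomicrons. Its median over 2 probe sets was 5.05, 5.06, 5.13, 5.02, 5.20 and 5.29 on the embryonic arrays in order of stage and 6.17 in the adult. The embryonic arrays lay between 5.02 and 5.29, and the adult array stood above all 6. The slope of 0.04 ± 0.02 per day did not pass (adjusted p = 0.234). The adult difference of 0.94 ± 0.11 had an adjusted p of 0.00182 and fell just short of the limit of 1.

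The 2 Apob probe sets disagreed. Probe set 1455593_at read 7.11 in the adult and 4.88 to 5.37 on the embryonic arrays, and its adult difference of 1.90 ± 0.17 passed (adjusted p = 0.000760). Probe set 1457554_at read 5.23 in the adult and 5.01 to 5.29 on the embryonic arrays. Which of the probe sets follows the transcript was not tested. Mttp and Apob, whose proteins work together, differed in the sign of the adult difference, −3.23 and 0.94. For Apob this rests on 1455593_at, as 1457554_at had −0.03. The embryonic Apob medians were low, between percentiles 22.5 and 30.6 of all genes.

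Dgat1 encodes an enzyme of the last step of triglyceride synthesis. Its median was 7.15, 7.14, 6.92, 7.09, 7.10 and 7.20 on the embryonic arrays in order of stage and 7.56 in the adult, and neither the slope of 0.01 ± 0.03 (adjusted p = 0.884) nor the adult difference of 0.44 ± 0.13 (adjusted p = 0.0606) passed. Here too the probe sets parted. Probe set 1418295_s_at read 8.94 in the adult and 7.48 to 8.06 on the embryonic arrays (adult difference 1.005 ± 0.20, adjusted p = 0.0155). Probe set 1445229_at read 6.19 in the adult, below its embryonic range of 6.33 to 6.64.

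Cd36 encodes a fatty acid translocase of enterocytes, which fat cells, macrophages and capillary endothelium also make. Its median over 3 probe sets was 5.32, 5.49, 5.11, 5.43, 5.67 and 6.01 on the embryonic arrays in order of stage and 6.05 in the adult. The slope of 0.12 ± 0.05 per day did not pass (adjusted p = 0.111). One of its probe sets, 1450884_at, passed when fitted on its own (0.21 ± 0.05 per day, adjusted p = 0.0406). The other 2 did not, and 1423166_at read 5.43 on each of the E16.5, E17.5 and E18.5 arrays. Among adipocyte markers 3 of 10 were higher in the adult, with Adipoq at 7.45 in the adult and 4.24 to 4.49 in embryos. Of 10 macrophage markers 4 were higher, and of 12 capillary endothelium markers 1 was (Lpl), where 4.23% of all genes were. Along the embryonic days 0 adipocyte, 0 macrophage and 2 capillary markers rose (Eng and Fabp4), where 9.12% of all genes did. The part of such cells in the Cd36 level was not tested.

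Fabp1 encodes the fatty acid binding protein of liver and proximal small intestine. Its median over 2 probe sets was 4.82, 4.79, 4.92, 5.001, 4.94 and 5.06 on the embryonic arrays in order of stage and 4.92 in the adult, a whole range of 0.27. The 25th percentile of all genes was 5.04 to 5.17 on the 7 arrays, and the files hold no detection call to set such a value against background. Neither the slope of 0.05 ± 0.02 (adjusted p = 0.138) nor the adult difference of −0.12 ± 0.10 (adjusted p = 0.481) passed.

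The tissue label was set against markers of the colon epithelium. Of 12 pan-epithelial markers 11 rose along the embryonic days, and of 11 measured colon epithelium markers 9 rose and 6 were higher in the adult. Car1 read 13.19 in the adult and 5.74 to 6.84 in embryos. Among all genes 9.12% rose and 4.23% were higher in the adult. A rise was not particular to epithelial markers. Of 7 muscle markers 5 rose (Myh11, Des, Tagln, Cnn1 and Actg2) and 1, Smtn, was higher in the adult. In bulk colon RNA, more epithelial cells and more RNA of a gene per epithelial cell cannot be told apart. Over the last 4 arrays the median of the pan-epithelial list was 9.89, 10.20, 10.46 and 11.84, in order from E16.5 to adult. The part of the epithelial share in the levels of the lipid genes was not tested.

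Markers of small intestine enterocytes went in several directions. Of 14 measured, 6 rose in embryos (Alpi, Anpep, Slc5a1, Cubn, Mep1a and Mep1b). In the adult 3 were lower (Anpep, Cubn and Enpep) and 1, Slc5a1, was higher. The shares of all genes were 9.12% rising, 3.26% lower and 4.23% higher. Gata4, a factor of the upper small intestine, read 4.56 to 4.88 over the 7 arrays, Onecut2 4.38 to 4.76 and the ileal bile acid transporter Slc10a2 3.88 to 4.63. The median of the list was 6.75 in the adult and 5.36 to 6.80 on the embryonic arrays. The part of such cells in the levels of the lipid genes was not tested.

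Markers of hepatocytes were examined because liver makes many of the same apolipoproteins. Of 16 measured, 4 rose in embryos (Ttr, Serpina1b, Fga and Itih3), 1 was lower in the adult (Serpina1b) and 2 were higher (Cyp2e1 and Rbp4). Over all genes 9.12% rose, 3.26% were lower and 4.23% higher. The median of the list was 5.30 in the adult and 5.56 to 5.79 on the embryonic arrays. Albumin, Alb, read 6.83 in the adult and 6.24 to 6.77 in embryos, with 6.77, 6.72 and 6.69 on the last 3 embryonic arrays. On those arrays Afp read 6.31, 8.02 and 9.51, with 5.09 in the adult, and Serpina1b read 8.79, 9.57 and 10.15, with 4.53 in the adult. The part of liver-type RNA in the apolipoprotein levels was not tested.

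The adult array also differed in a sign of RNA quality. Gapdh control probe sets at the 5′ end lay below those at the 3′ end, with a difference of −2.41 for the adult against −1.59 to −1.29 for embryos. For Actb the adult had −2.66 and the embryos −2.14 to −1.96. Its part in the adult values was not tested.

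Beyond the 10 genes, 6 lists of genes of the same pathway were described by how many of their members passed the same fit. Against the 9.12% of all genes that rose and the 4.23% and 3.26% that were higher and lower in the adult, each list is given as a count. Between E16.5 and E17.5, where 6 of the 10 genes passed the 2-fold limit, 2 of 13 sterol and bile acid genes did, Slc51b and Abcc2. In each of the other pathway lists 0 did. Among the markers, 3 of 11 of the colon epithelium passed it too (Muc2, Fcgbp and Guca2a). So did 3 of 14 of small intestine enterocytes (Alpi, Cubn and Mep1b), 1 of 12 pan-epithelial (Krt20) and 1 of 16 of hepatocytes (Afp). Of all genes 0.649% did. The interval was picked from the values of the 10 genes, so the list and marker counts describe it and are no test. From E16.5 to E17.5 the median level of each of the 6 pathway lists moved by less than 1 log2 unit.

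**Figure D4:**
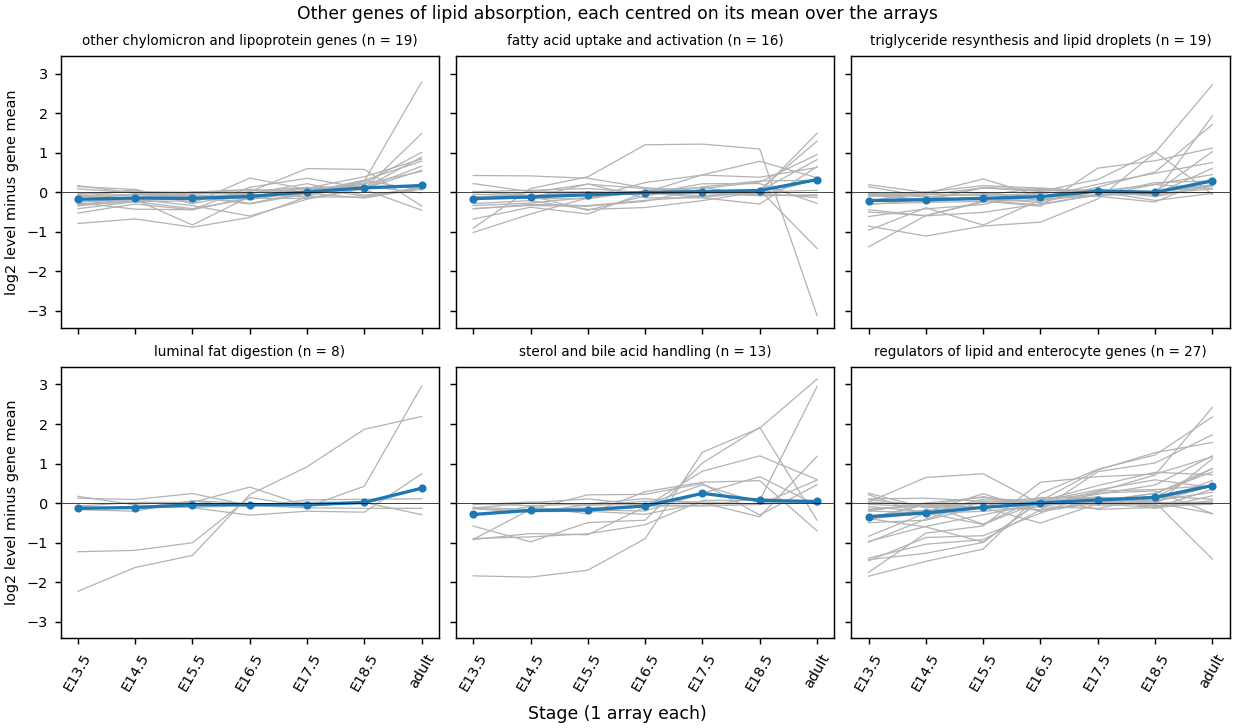
Log2 level of each gene of 6 pathway lists minus its mean over the 7 arrays (vertical axis) at the 7 stages (horizontal axis), with 1 array per stage. Grey lines are genes, the blue line is the median of the list, and n is the number of measured genes. The medians of the 6 lists change little between E16.5 and E17.5, where 6 of the 10 lipid absorption genes were at least 2-fold higher. That interval was picked from the values of the 10 genes.

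Of 19 measured other chylomicron and lipoprotein genes, 4 rose in embryos and 2 were higher in the adult. Apoc1, which encodes apolipoprotein C-I, rose at 0.22 ± 0.03 per day (adjusted p = 0.00637) and read 6.12 in the adult and 7.05 at E18.5. Apobec1, the enzyme that edits Apob mRNA to give the short intestinal form of the protein, rose at 0.21 ± 0.05 per day (adjusted p = 0.0312), and its adult difference was 2.74 ± 0.26 (adjusted p = 0.000787). Vldlr, a lipoprotein receptor, rose at 0.16 ± 0.04 per day (adjusted p = 0.0371). Tm6sf2, which acts in lipidation of apolipoprotein B particles, was higher in the adult by 1.62 ± 0.24 (adjusted p = 0.00448). Apoa5, the gene next to Apoa4, read 6.09 in the adult and 5.93 at E18.5 and passed neither test.

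Of 16 measured genes of fatty acid uptake and activation, 5 rose, 1 fell, 2 were higher and 2 lower in the adult. Fabp7, known from neural progenitors and glia, rose at 0.41 ± 0.08 per day (adjusted p = 0.0121) and was lower in the adult by a difference of −4.65 ± 0.39 (adjusted p = 0.000442). Fabp4, of fat cells and capillaries, rose at 0.30 ± 0.04 per day (adjusted p = 0.00440), and so did Acsl5, which activates fatty acids in enterocytes (0.30 ± 0.04, adjusted p = 0.00474). In the adult Acsl3 was higher by 1.63 ± 0.17 (adjusted p = 0.00104) and Fabp5 was lower, with a difference of −1.43 ± 0.11 (adjusted p = 0.000310). The fatty acid binding proteins thus ran different courses, with Fabp2 highest in the adult and Fabp7 and Fabp5 lowest there.

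Of 19 measured genes of triglyceride resynthesis and lipid droplets, 6 rose and 4 were higher in the adult, while 0 fell or were lower. Gpat3, which starts glycerolipid synthesis, rose at 0.41 ± 0.05 per day (adjusted p = 0.00331), Cideb, a lipid droplet protein, at 0.35 ± 0.09 (adjusted p = 0.0360) and Mogat2, the monoacylglycerol acyltransferase of enterocytes, at 0.31 ± 0.04 (adjusted p = 0.00364). Mogat2 read 7.003 in the adult and 8.08 at E18.5, and its adult difference of −0.82 ± 0.20 stayed under the limit of 1. Cideb (2.31 ± 0.46, adjusted p = 0.0150), Abhd5, the activator of the triglyceride lipase of lipid droplets (1.99 ± 0.15, adjusted p = 0.000254), and Agpat2 (1.32 ± 0.26, adjusted p = 0.0148) were higher in the adult.

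Of 8 measured genes of luminal fat digestion, 2 rose and 2 were higher in the adult. Pla2g10, a secreted phospholipase, rose at 0.85 ± 0.06 per day (adjusted p = 0.000802). Clps, the cofactor of pancreatic lipase, rose at 0.36 ± 0.06 (adjusted p = 0.00778) and was higher in the adult by 2.54 ± 0.31 (adjusted p = 0.00204), and Pnliprp2 by 1.05 ± 0.13 (adjusted p = 0.00225). Of 9 measured markers of pancreatic acinar cells 5 were higher in the adult, where 4.23% of all genes were. Among them Cela1 read 9.96 in the adult and 5.20 to 6.26 in embryos. The part of such cells in the Clps and Pnliprp2 levels was not tested.

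Of 13 measured genes of sterol and bile acid handling, 6 rose, 2 were higher and 1 was lower in the adult. Slc51b and Slc51a, the subunits of the basolateral bile acid exporter, rose at 0.83 ± 0.14 (adjusted p = 0.00825) and 0.46 ± 0.06 per day (adjusted p = 0.00465), and Abcc2 at 0.53 ± 0.11 (adjusted p = 0.0198). Slc51b read 6.95, 9.13, 9.74 and 10.98, in order from E16.5 to adult. Abcc3, another exporter of conjugates (2.88 ± 0.19, adjusted p = 0.000182), and Abcg5, of the sterol exporter (1.42 ± 0.15, adjusted p = 0.00132), were higher in the adult, and Stard4, a carrier of cholesterol, was lower (−1.31 ± 0.18, adjusted p = 0.00383).

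Of 27 measured regulators of lipid and enterocyte genes, 12 rose, 0 fell, 2 were higher and 1 was lower in the adult. Klf4 rose at 0.68 ± 0.06 (adjusted p = 0.00122), the gut homeobox gene Cdx1 at 0.60 ± 0.06 (adjusted p = 0.00167) and Nr1h4, the bile acid receptor, at 0.52 ± 0.05 per day (adjusted p = 0.00192). Hnf4a and Hnf4g, whose products bind the HNF4-type letters, were among the 12, and Gata4, Gata5 and Gata6 were not. A part of any of these factors in the levels of the lipid genes was not tested. Pparg (1.76 ± 0.16, adjusted p = 0.000640) and Ppargc1a (1.20 ± 0.23, adjusted p = 0.0127) were higher in the adult. Prdm1, a repressor known to hold the fetal programme of mouse gut until weaning, was lower, with 6.52 in the adult and 7.96 at E18.5 (difference −1.46 ± 0.35, adjusted p = 0.0312). Of the 27 regulators 0 passed the 2-fold limit between E16.5 and E17.5.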

How the data were processed

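Colon RNA of 7 stages was measured on 1 array each. The authors deposited log2 values normalized with RMA, a method that subtracts background, brings the arrays to one distribution and combines the probes into 1 value per probe set. Software in the submitters' processing notes was affy 1.22.1 with R 2.9.2. RMA hides a shift common to most genes. Each of the 45101 probe sets was named through the platform annotation, and symbols were updated through the gene identifier in RefSeq tables of GRCm38.p6 (18033 of 18195 matched). Those with several genes (932) or with none (9211) were dropped, and medians of the other 34958 gave 18194 genes, dim ones included.

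limma 3.58.1 in R 4.3.3 (lmFit, eBayes) fitted all genes, with 4 residual degrees of freedom. The code was run on simulated data that held straight slopes and adult shifts. No steps were simulated, so that run does not bear on genes with a step such as Apoa1. The threshold was a Benjamini-Hochberg adjusted p of 0.05, for adult differences together with a size of 1 in log2 units. With 1 array per stage, p-values rest on the spread of arrays of different stages, and 7 arrays give little precision. Named were the 10 genes, from each pathway list the 3 called genes of steepest slope and the 3 of largest adult difference, the 3 nearest genes of each of the 10 genes whose range was at least 2, and marker genes. Genes named outside this rule (the 5 examples of the 26 genes, Apoa5 and regulators named for their motif) were chosen after their values were seen. The members, gene lists, motifs and tests were chosen with earlier results of these data known. Alternatives tried were the brightest probe set, single probe sets, a filter on the dimmest 25% of genes, median centring, trended robust eBayes, a slope over all 7 arrays, the last embryonic pair (E17.5, E18.5) as reference of the adult, a step fit and leaving out each embryonic array. Other steps ran in Python 3.11.15 with pandas 2.3.3 and numpy 2.4.6, and figures were drawn in matplotlib 3.10.9.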

Additional observations from a re-analysis of the deposited data

How the results depend on the processing

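The 6 rising genes kept their calls with the brightest probe set (1885 of all genes rose) and without the dimmest 25% of genes (1639). They also kept them with median centring (1495) and with trended robust eBayes (1632). The count was 7 with probe sets fitted singly (Cd36 added), 3 with a slope over all 7 arrays (Fabp2, Fabp6 and Cd36), where 1921 of all genes rose, 1 with the step fit (Apoa1), where 2 of all genes did, and 0 to 7 when each embryonic array was left out, where 812 to 2076 did. The number lower in the adult, 2 as reported, was 3 without the dimmest 25% of genes (Apoc3 added), where 604 of all genes were lower, 0 with the averaged E17.5 and E18.5 arrays as reference, a fit in which 0 of all genes passed, 4 with the step fit (Apoa1, Apoa4, Apoc3 and Mttp), where 513 were, and 0 to 4 when each embryonic array was left out, where 511 to 616 were. The step fit was chosen after seeing the data. For Apob and Dgat1, with adult differences of 0.94 and 0.44 that fell short of the limit of 1, the brightest probe sets had 1.90 and 1.005. Their other probe sets, fitted singly, had −0.03 and −0.12. The number with a Spearman correlation above 0.9, 1 as reported, was 2 with the brightest probe set (Fabp2 and Cd36) and 4 over the embryonic arrays alone (Apoa4, Apoc3, Mttp and Fabp2). The share over all genes was counted only for medians over 7 arrays (6.5%). The numbers from the other settings therefore have nothing to be set against. Over the single genes and every alternative but single probe sets, 94 slopes kept their side of the threshold, 23 lost a call and 2 gained one, and 104 adult differences kept theirs, 6 lost a call and 9 gained one. No direction of a called value reversed. The cause of these changes was not tested.

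No paired analysis was possible because each stage has 1 array. No stage has a replicate, the adult array is alone, and the files hold no detection calls, so small differences of dim probe sets such as those of Fabp1 are not resolved.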
